A study of Mus musculus with 6 samples.

Results

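A set of 10 transcription factor genes that act after Neurog3 in the formation of hormone cells of the pancreas were followed across 6 RNA-seq libraries of embryonic mouse pancreas. The genes were Neurod1, Neurod2, Insm1, Nkx2-2, Rfx6, Myt1, Pax6, Isl1, Fev and St18, taken by their symbols from the 23337 gene symbols that were counted in every library. All 10 were found and all 10 passed the filter on low counts. The mutant group comprised 3 pools from NMRI embryos at E13.5 that the labels call Prox1-nullyzygous, genotype Prox1 GFPCre/D, and the control group 3 pools from wildtype NMRI embryos of the same age. Each pool held 5 to 6 pancreata of a single genotype and gave 1 library, so the spread between libraries is a spread between pools and not between embryos. Whole organs were sequenced, so every level is an average over epithelium, mesenchyme, blood and nerve.

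Neurog3 encodes a basic helix-loop-helix protein that is switched on for a short time in single cells of the pancreatic epithelium and commits them to the endocrine fate in the mouse. The 10 genes are turned on in those cells or in their daughters, and their products carry the cells through cell cycle exit, departure from the epithelium and the start of hormone production. Most of the 10 are also used by developing neurons, which share much of this programme with islet cells. Prox1, the gene altered in the mutants, encodes a homeodomain protein present in the epithelium of the early pancreas.

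Among the 10 factors, 7 fell in the mutant pools and none rose, with fold decreases of 1.46 (Rfx6) to 3.37 (Neurod2), while 4.28% of all genes tested were called lower. Neurog3 itself fell 2.12-fold. Isl1 differed least, at 91.6% of its control level, and was not called changed, as were Fev and St18. The fall was uneven: Myt1 and Pax6 stood at 44.3% and 48.1% of their control levels, close to Neurog3 at 47.1%, while Insm1, Nkx2-2 and Rfx6 stood at 65.8%, 66.2% and 68.7%. Relative to Neurog3, 6 of the 10 factors were higher in every mutant pool than in any control pool, as were 95.3% of all genes tested, since Neurog3 fell more than most genes.

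Proteins of the Neurog and Neurod families bind DNA at the E-box, the 6-base element CANNTG, in which N is any base. Stretches before a RefSeq transcription start are shown for 5 of the factors. Chosen were genes that fell with several E-boxes (Nkx2-2, Neurod2), with 1 (Neurod1) and with none (Rfx6), and Isl1, which was not called. The sequences are from RefSeq on GRCm38.p6, the assembly also called mm10, and they are written 5′ to 3′ on the strand of the gene with E-boxes in capitals. Bases that GENCODE release M21 places in an exon were left off at the 3′ end.
Nkx2-2: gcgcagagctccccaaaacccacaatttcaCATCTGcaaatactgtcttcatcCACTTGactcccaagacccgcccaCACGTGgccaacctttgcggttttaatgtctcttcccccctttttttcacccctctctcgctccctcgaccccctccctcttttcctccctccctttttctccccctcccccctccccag
Neurod2: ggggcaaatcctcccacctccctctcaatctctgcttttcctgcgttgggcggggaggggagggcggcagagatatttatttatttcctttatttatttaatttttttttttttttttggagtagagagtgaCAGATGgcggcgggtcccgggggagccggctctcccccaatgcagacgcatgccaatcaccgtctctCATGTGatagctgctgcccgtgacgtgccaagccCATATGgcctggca
Neurod1: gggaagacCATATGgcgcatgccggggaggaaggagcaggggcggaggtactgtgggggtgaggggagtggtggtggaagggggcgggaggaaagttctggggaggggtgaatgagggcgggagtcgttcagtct
Rfx6: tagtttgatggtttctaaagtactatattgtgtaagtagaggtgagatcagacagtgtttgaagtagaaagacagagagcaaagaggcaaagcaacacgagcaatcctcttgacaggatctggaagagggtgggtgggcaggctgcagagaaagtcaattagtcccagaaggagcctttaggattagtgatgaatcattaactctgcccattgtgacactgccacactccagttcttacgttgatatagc
Isl1: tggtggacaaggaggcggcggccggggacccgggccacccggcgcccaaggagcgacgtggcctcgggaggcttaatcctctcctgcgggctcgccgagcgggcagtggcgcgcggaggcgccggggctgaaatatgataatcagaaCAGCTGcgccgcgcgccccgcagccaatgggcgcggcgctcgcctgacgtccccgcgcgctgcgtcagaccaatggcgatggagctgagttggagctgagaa
The Nkx2-2 stretch lies at chr2:147186456-147186652 on the minus strand and holds 3 E-boxes, whose first bases are 220, 197 and 173 bases before the RefSeq start. The Neurod2 stretch, at chr11:98329649-98329895 on the minus strand, also holds 3, at 118, 51 and 17 bases. Neurod1, at chr2:79456752-79456886 on the minus strand, has 1 E-box at 242 bases. Rfx6, at chr10:51685268-51685517 on the plus strand, has 0, and Isl1, at chr13:116309690-116309938 on the minus strand, has 1 at 103 bases. GENCODE begins Rfx6 at 51677756 and, on the minus strand, Nkx2-2 at 147194243, so the stretches of these genes lie inside their annotated spans. Bases before those outer starts of Rfx6 and Nkx2-2 were not searched.

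The 250 bases before each start were searched on both strands, and 8 of the 10 factors had a window in the RefSeq table, with 11 windows in all; Insm1 and St18 had none. An E-box was present in 7 of the 11 windows, which belong to 6 genes (Rfx6, Fev, 1 of 2 windows of Pax6 and 1 of 3 of Myt1 had none), against 66.2% of all 32851 windows in the table, so the presence of this short element did not set the factors apart. The form CAGATG, read on the other strand as CATCTG, is contained in CANNTG and is favoured by neurogenic helix-loop-helix proteins. It was present before Nkx2-2, 220 bases from its start, and before Neurod2, 118 bases from its start. It occurs in 14.4% of all windows. The E-box of Isl1 was of another form, CAGCTG, which is present in 13.0% of windows and also 165 bases before the start of Neurog3. The element AAAGTTT, bound by Myt1 and its relative St18, was found once, 139 bases before 1 of the 3 starts of Myt1 itself, against 4.20% of all windows. A match describes the letters of these windows and no binding was measured.

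Total counts were 16060424 to 17633867 reads per mutant library and 16325177 to 16954513 reads per control library, so that 1 CPM (a count scaled to a common library size) stood for 15.9 to 17.5 reads. CPM values were scaled to each library's total count and its TMM factor. Prox1 had 83.6, 104 and 91.6 CPM in mutant pools 1 to 3, against 105, 103 and 107 CPM in control pools 1 to 3, which overlapped. Its log2 fold change was -0.17 (SE 0.0743, edgeR adjusted p = 0.235), but which stretch of the gene is missing from these alleles is not stated in the labels, so whole-gene counts do not check the genotype. Mutant pool 1 and control pool 3 stood apart in sex-linked RNA: Xist was at 0.126 CPM in mutant pool 1 and 0.526 CPM in control pool 3, and between 2014 and 2812 CPM elsewhere. For the factors, other endocrine regulators and relatives of the factors, results are therefore also given without these 2 pools where that ended a call. Calls in the other gene lists and of the remaining named genes are not given without these pools. Over all genes, 1167 of 14687 tested were called changed at an adjusted p under 0.05 (7.95%), 628 of them lower in the mutants (4.28%), by edgeR's quasi-likelihood test with Benjamini-Hochberg adjustment over all genes tested.

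Neurog3, on chromosome 10 (62133090 to 62134763, plus strand; positions in the text are from GENCODE M21), had 66.5, 68.5 and 61.9 CPM in mutant pools 1 to 3. In control pools 1 to 3 it had 143, 112 and 163 CPM. The groups were well apart, and the controls spread more widely than the mutants. The log2 fold change was -1.09 (SE 0.118, edgeR adjusted p = 0.00105).

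Of the 10 factors, 7 were called lower and 0 higher, against the background of 4.28% of all tested genes called lower. Their median log2 fold change was -0.60, against 0.00 over all genes tested. The mutant pools were all below the control pools for 9 of the 10, a pattern seen in 13.4% of all genes tested. In whole-organ RNA, fewer endocrine cells and less of each RNA per cell cannot be told apart. Summed over the 10 factors, the level was 228 ± 12.2 CPM in mutant pools and 350 ± 32.2 CPM in control pools (SD, n = 3 each).

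**Figure D1:**
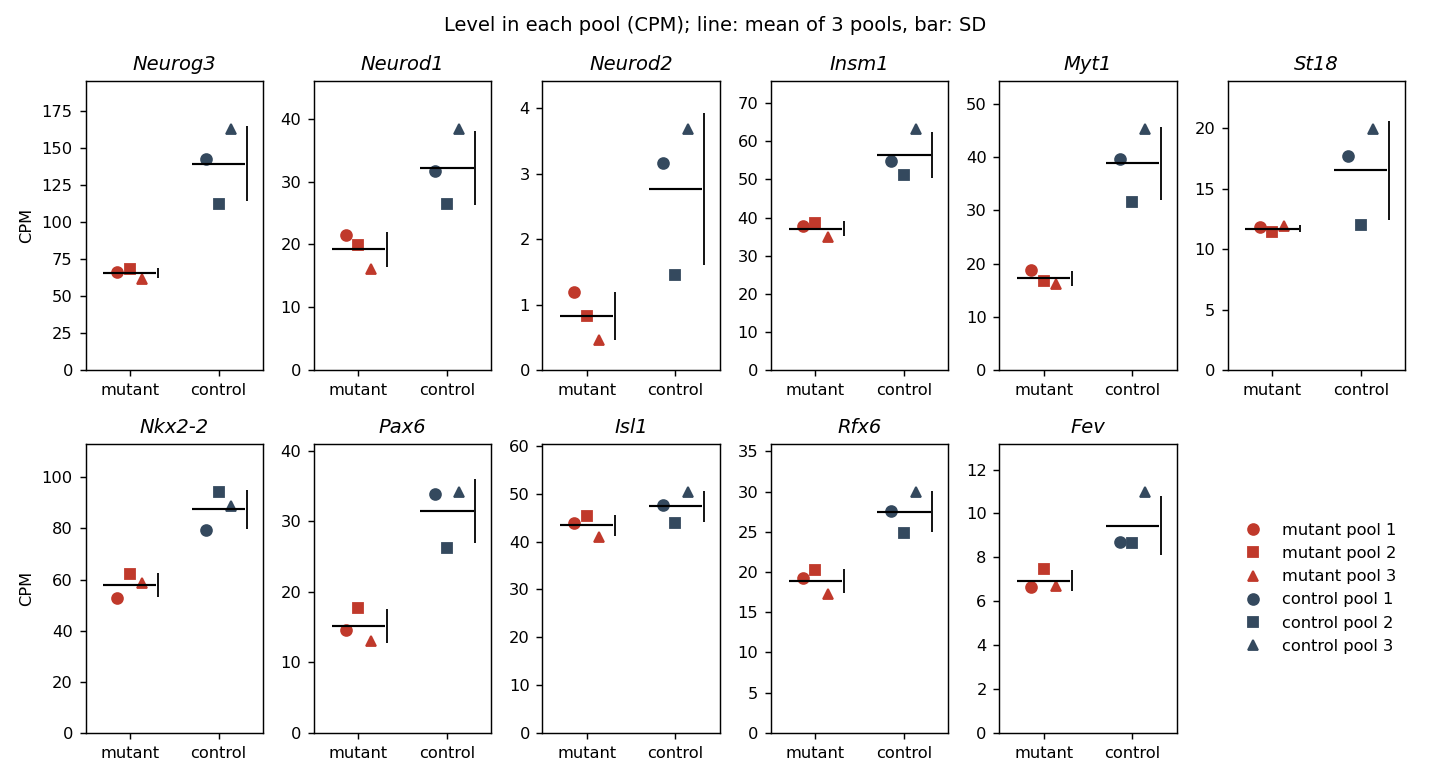
Level of Neurog3 and of the 10 factors in each pool, in CPM on a linear axis that starts at 0, with mutant pools on the left and control pools on the right of each panel. Points are pools, the horizontal line is the mean of 3 pools and the vertical bar its SD; the 3 mutant pools of Myt1 sit between 16.1 and 18.8 CPM, below all control pools, while the pools of Isl1 overlap.

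The helix-loop-helix pair of the set fell. Neurod1 is a direct target of Neurog3 that keeps endocrine cells alive and drives the insulin gene. It lies on chromosome 2 (79452521 to 79456751, minus strand) and had 21.6, 19.9 and 16.1 CPM in mutant pools 1 to 3, against 31.7, 26.5 and 38.3 CPM in control pools 1 to 3. Every mutant pool was below every control pool, and the log2 fold change was -0.75 (95% interval -1.08 to -0.42, SE 0.146, edgeR adjusted p = 0.0158). The call ended when mutant pool 2, mutant pool 3 or control pool 1 was left out, with edgeR adjusted p of 0.0537, 0.0541 and 0.0574 in that order. Neurod1 shares 201 exon bases (7.37% of its exon bases) with Cerkl on the same strand, which had 3 to 30 reads per library.

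Neurod2, better known from neurons of the forebrain, was the least abundant of the set and had the steepest fold decrease. It lies on chromosome 11 (98325415 to 98329648, minus strand). Mutant pools 1 to 3 had 19, 14 and 8 reads, or 1.19, 0.824 and 0.457 CPM. Control pools 1 to 3 had 53, 24 and 63 reads, or 3.16, 1.46 and 3.68 CPM. The groups did not overlap, but control pool 2 was near mutant pool 1. The log2 fold change was -1.75 with a wide 95% interval of -2.71 to -0.80 (SE 0.422, edgeR adjusted p = 0.0377). This call was lost when mutant pool 2 or 3 or control pool 1 or 3 was left out (edgeR adjusted p = 0.112 to 0.117), without the 2 pools almost without Xist (0.0743) and with limma voom (0.0610).

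The zinc finger factors comprised Insm1 and 2 members of the Myt family. Insm1, a target of Neurog3 needed in the mouse for endocrine cells to mature and to leave the epithelium, lies on chromosome 2 (146221921 to 146225020, plus strand). It had 37.7, 38.6 and 35.0 CPM in mutant pools 1 to 3, against 54.8, 51.2 and 63.1 CPM in control pools 1 to 3. The mutant pools lay close together and below every control pool. The log2 fold change was -0.60 (95% interval -0.79 to -0.41, SE 0.0836, edgeR adjusted p = 0.00331).

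Myt1 promotes endocrine differentiation together with Neurog3, each raising the other's expression. It lies on chromosome 2 (181763332 to 181827797, plus strand) and had 18.8, 16.8 and 16.1 CPM in mutant pools 1 to 3, against 39.7, 31.7 and 45.3 CPM in control pools 1 to 3. Even the lowest control pool was well above the highest mutant pool. With a log2 fold change of -1.18 (95% interval -1.47 to -0.88, SE 0.128, edgeR adjusted p = 0.00106), Myt1 had the smallest adjusted p of the 10.

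St18, also called Myt3, is a relative of Myt1 known from beta cells and lies on chromosome 1 (6487231 to 6860940, plus strand). It had 11.8, 11.4 and 11.9 CPM in mutant pools 1 to 3, against 17.7, 12.0 and 19.9 CPM in control pools 1 to 3. The mutant pools were nearly alike, and control pool 2 lay just above them. The log2 fold change of -0.50 (95% interval -0.88 to -0.12, SE 0.168) was not called (edgeR adjusted p = 0.120). Without control pool 2 it was -0.69 and called (edgeR adjusted p = 0.00442), so the result depended on that pool. Leaving it out also raised the number of genes called, over all genes, from 1167 to 1421.

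Among the homeodomain factors, Nkx2-2 and Pax6 fell and Isl1 did not pass the test. Nkx2-2, required in the mouse for beta cells, which ghrelin cells replace in its absence, lies on chromosome 2 (147177546 to 147194243, minus strand). It had 52.9, 62.2 and 58.6 CPM in mutant pools 1 to 3, against 79.4, 94.3 and 88.7 CPM in control pools 1 to 3. The groups were clearly separate, and the log2 fold change was -0.59 (95% interval -0.77 to -0.42, SE 0.0792, edgeR adjusted p = 0.00280). An antisense gene, Nkx2-2os, shares 278 of its exon bases (9.67%), and the strand setting of the counting is not given in the sources used here.

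Pax6, a paired-box homeodomain factor that activates hormone genes including glucagon and is needed for alpha cells, lies on chromosome 2 (105668900 to 105697364, plus strand). It had 14.6, 17.7 and 13.0 CPM in mutant pools 1 to 3, against 33.9, 26.2 and 34.2 CPM in control pools 1 to 3. All mutant pools were far below the controls, and the log2 fold change was -1.06 (95% interval -1.37 to -0.74, SE 0.137, edgeR adjusted p = 0.00259).

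Isl1, a LIM homeodomain factor of endocrine cells that have left the cell cycle, is also made in the mouse in mesenchyme beside the dorsal pancreas and in several kinds of neuron. It lies on chromosome 13 (116298281 to 116309689, minus strand) and had 43.8, 45.3 and 41.1 CPM in mutant pools 1 to 3, against 47.7, 43.9 and 50.4 CPM in control pools 1 to 3. The groups overlapped, since mutant pool 2 was above control pool 2. The log2 fold change was -0.13 and its 95% interval ran from -0.28 to 0.03 (SE 0.0685, edgeR adjusted p = 0.347). That interval lay wholly above those of Neurod1, Neurod2, Insm1, Nkx2-2, Rfx6, Myt1 and Pax6. It leaves room for a decrease of up to 0.28 on the log2 scale.

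The last 2 factors belong to other families. Rfx6, a winged-helix factor needed in the mouse for most islet cell types, lies on chromosome 10 (51677756 to 51730432, plus strand). It had 19.3, 20.2 and 17.2 CPM in mutant pools 1 to 3, against 27.6, 24.9 and 29.96 CPM in control pools 1 to 3. The groups did not overlap and the log2 fold change was -0.54 (95% interval -0.75 to -0.33, SE 0.0939, edgeR adjusted p = 0.00929). Fev, an ETS factor that marks endocrine precursors after Neurog3 in the mouse and also specifies serotonin neurons, lies on chromosome 1 (74881509 to 74885419, minus strand). It had 6.66, 7.48 and 6.69 CPM in mutant pools 1 to 3, against 8.71, 8.64 and 10.98 CPM in control pools 1 to 3. These pools did not overlap either, but the log2 fold change of -0.44 (95% interval -0.75 to -0.14, SE 0.135) was not called (edgeR adjusted p = 0.0870).

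**Figure D2:**
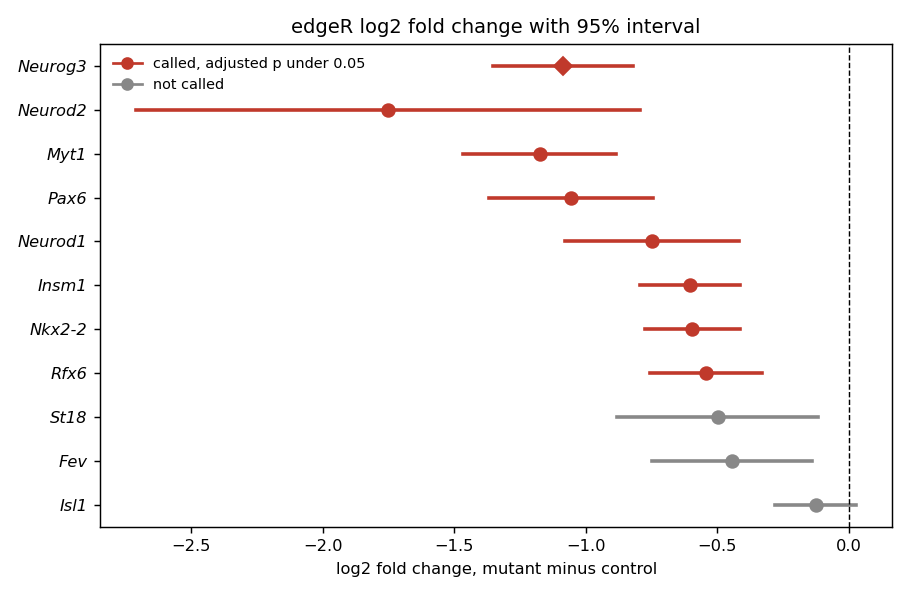
Log2 fold change, mutant minus control, of Neurog3 (diamond) and of the 10 factors (circles) on the horizontal axis, with 95% intervals from the edgeR fit as lines. Red marks the genes called at an adjusted p under 0.05 and grey those not called; the points run from -1.75 for Neurod2 to -0.13 for Isl1, and the interval of Isl1 includes 0.

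The control pools differed from each other in the same order for nearly the whole set. In 9 of the 10 factors, and in Neurog3, control pool 3 was highest and control pool 2 lowest, an order shared by 3275 of the 14687 genes tested. Nkx2-2 was the exception, highest in control pool 2 and lowest in control pool 1. The coefficient of variation was larger over the control than over the mutant pools for 8 of the 10. Each factor's profile over the 6 libraries followed the mean of the other 9 with a Pearson r of 0.810 (Nkx2-2) to 0.993 (Rfx6), with r of 0.876 for Isl1 and 0.866 for St18. These profiles share the 6 libraries and their division into 2 groups, and the correlations are given as a description.

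The 10 factors were ranked by level per kilobase of exon, with all annotated exons of a gene joined, which overstates the length of genes with many isoforms such as Pax6. Nkx2-2 was the most abundant, at 20.1 ± 1.63 CPM per kb in mutant pools and 30.4 ± 2.61 CPM per kb in control pools (SD, n = 3 each). Insm1 was next, at 12.0 ± 0.609 CPM per kb in mutant pools and 18.2 ± 1.97 CPM per kb in control pools. In control pools Isl1 (12.0 CPM per kb) and Neurod1 (11.8) followed and overlapped in range. Rfx6 (6.86), Fev (5.84) and Myt1 (5.40) came after them, each overlapping its neighbour, then Pax6 (2.69) and St18 (2.56), which also overlapped, and last Neurod2 (0.881). The order of the mutant means differed only in that St18, at 1.81 CPM per kb, stood above Pax6, at 1.29 CPM per kb.

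The make-up of the set differed between groups, shown here by shares of summed CPM, which are not scaled to gene length and are compared only between groups. Isl1 made up 19.0% ± 0.165 of the summed CPM of the 10 factors in mutant pools and 13.6% ± 0.395 in control pools (SD, n = 3 each), without overlap. Fev, too, had a larger share in every mutant pool, at 3.04% ± 0.107 against 2.69% ± 0.163 in control pools. The sum was itself lower in mutant pools, at 228 against 350 CPM, so a gene that fell less than the sum gained share. Fev averaged 6.94 CPM in mutant pools and 9.45 CPM in control pools. How many of all genes tested would stand apart in this way was not counted. Myt1 made up 7.56% ± 0.631 in mutant pools and 11.1% ± 1.03 in control pools, and Pax6 6.60% ± 0.699 in mutant pools and 8.96% ± 0.841 in control pools, both without overlap. The share of Insm1 was nearly equal, 16.3% ± 0.232 in mutant pools and 16.1% ± 0.278 in control pools. The shares of the other 5 factors overlapped between groups.

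The level of each factor was next set against that of Neurog3 in the same library, to see whether it differed by more or less than Neurog3. Ratios were compared on the log2 scale of CPM plus a pseudocount of 0.5 with a two-sided exact permutation test, which with 3 against 3 pools cannot give a p below 0.1. Isl1 stood at 65.8%, 66.2% and 66.3% of Neurog3 in mutant pools 1 to 3, against 33.4%, 39.1% and 31.0% in control pools 1 to 3. This was the widest gap of the set, with a log2 difference of 0.94 (exact permutation p = 0.1). Insm1 stood at 56.7%, 56.4% and 56.5% of Neurog3 in mutant pools 1 to 3, against 38.4%, 45.6% and 38.8% in control pools 1 to 3. Its ratio was thus almost the same in the 3 mutant pools and above every control pool, with a log2 difference of 0.47 (exact permutation p = 0.1).

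Fev, St18, Rfx6 and Neurod1 were also higher relative to Neurog3 in every mutant pool than in any control pool, with log2 differences of 0.65, 0.61, 0.54 and 0.34 (exact permutation p = 0.1 for each). Adjusted over the 20 ratios tested, that p was 0.143, so none of these differences passes a threshold of 0.05. Nkx2-2 stood at 79.5%, 90.9% and 94.6% of Neurog3 in mutant pools 1 to 3, against 55.6%, 83.9% and 54.5% in control pools 1 to 3, and overlapped (log2 difference 0.47, exact permutation p = 0.2). Myt1 stood at 28.2%, 24.5% and 26.0% of Neurog3 in mutant pools 1 to 3, against 27.8%, 28.2% and 27.8% in control pools 1 to 3. Its groups overlapped, with a log2 difference of -0.07 (exact permutation p = 0.4). Pax6 likewise overlapped, with a log2 difference of 0.03 (exact permutation p = 0.8), as did Neurod2, with -0.20 (exact permutation p = 0.5). No factor was lower relative to Neurog3 in all mutant pools. The 6 factors higher in every mutant pool compare with 95.3% of the 14686 other genes tested, so a higher ratio to Neurog3 is the usual case and the 4 factors whose ratios overlapped are the less usual.

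Another yardstick was the summed CPM of 10 general epithelial genes, among them Epcam, Cdh1 and the keratins Krt8 and Krt18, since endocrine cells arise from epithelium. This sum was 1601 ± 74.3 CPM in mutant pools and 1832 ± 202 CPM in control pools (SD, n = 3 each), with Krt19 called higher, Cdh1 called lower and 8 of the 10 not called. Relative to it, 8 of the 10 factors were lower in every mutant pool than in any control pool, against 3.94% of all genes tested. Myt1 stood at 1.22%, 0.996% and 1.02% of the epithelial sum in mutant pools 1 to 3, against 2.21%, 1.91% and 2.21% in control pools 1 to 3 (log2 difference -0.95, exact permutation p = 0.1). Isl1 stood at 2.84%, 2.69% and 2.61% in mutant pools 1 to 3, against 2.66%, 2.66% and 2.46% in control pools 1 to 3, with a log2 difference of 0.07 (exact permutation p = 0.4). Thus Myt1 was far below its control ratio in all mutant pools, and Isl1 overlapped. St18 overlapped too, at -0.26 (exact permutation p = 0.3).

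The other 7 factors had log2 differences of -1.08 (Neurod2), -0.84 (Pax6), -0.54 (Neurod1), -0.40 (Insm1), -0.40 (Nkx2-2), -0.34 (Rfx6) and -0.22 (Fev) relative to the epithelial sum, each with an exact permutation p of 0.1. With Cdh1 alone as the yardstick, which itself fell, the differences shrank to -0.31 for Neurod1, -0.18 for Insm1, -0.17 for Nkx2-2, -0.11 for Rfx6 and 0.01 for Fev, and also to -0.72 for Myt1 and -0.61 for Pax6. Isl1 then stood at 0.29. The size of these differences thus depended on the epithelial genes chosen.

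**Figure D3:**
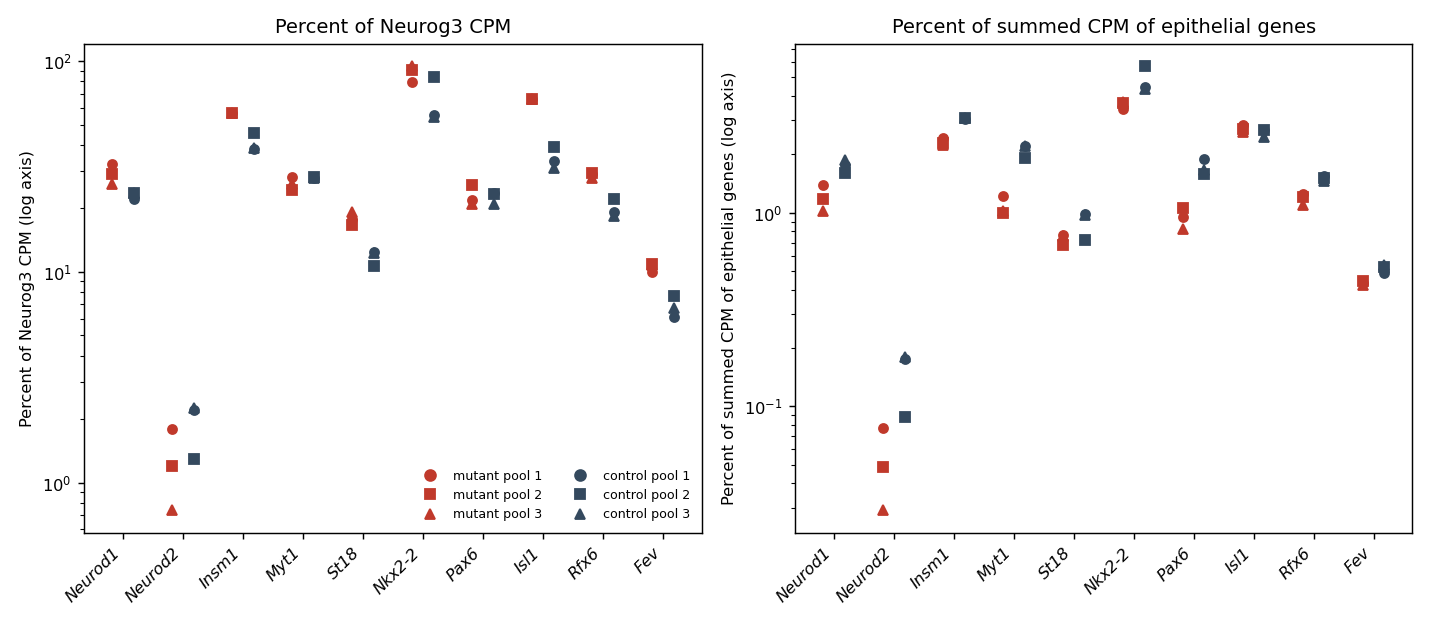
Level of each of the 10 factors as a percent of Neurog3 CPM (left) and of the summed CPM of 10 epithelial genes (right) in each pool, on log axes, with red mutant pools to the left of dark control pools. Relative to Neurog3, Isl1 lies at 65.8% to 66.3% in mutant pools and at 31.0% to 39.1% in control pools, while Myt1 overlaps; relative to epithelium, Myt1 lies below the control pools and Isl1 overlaps.

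Other regulators of endocrine cells fell as well. Of 25 such genes besides the 10 factors, Neurog3 included, 23 were tested. Of these, 12 were called lower, 0 higher and 11 were not called, and the median log2 fold change of the 23 was -0.45. Without the 2 pools almost without Xist, 9 were called lower, and Irx1, Pou3f4 and Nkx6-1 were no longer called (edgeR adjusted p = 0.136, 0.0677 and 0.145 in that order). Pax4, which promotes the beta fate, averaged 6.74 ± 0.869 CPM in mutant pools and 13.3 ± 1.24 CPM in control pools (SD, n = 3 each; log2 fold change -0.99, SE 0.129, edgeR adjusted p = 0.00265). Every mutant pool was below every control pool. The mutant levels of Btbd17 (log2 fold change -1.19) and of the helix-loop-helix gene Nhlh1 (-1.21) were also lower, and Tox3 differed less (-0.36).

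The 4 regulators with the highest CPM, not scaled to gene length, among those not called were Sox4, Sox11, Rfx3 and Runx1t1. Sox4 averaged 281 ± 18.9 CPM in mutant pools and 308 ± 34.9 CPM in control pools, and its relative Sox11 182 ± 6.50 CPM in mutant pools and 165 ± 20.1 CPM in control pools (SD, n = 3 each). Rfx3, of the same family as Rfx6, averaged 93.0 ± 2.56 CPM in mutant pools and 92.8 ± 3.70 CPM in control pools, and Runx1t1 78.4 ± 3.22 CPM in mutant pools and 79.4 ± 1.95 CPM in control pools. Their log2 fold changes lay between -0.13 and 0.14.

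Hormone and secretory granule genes, the products of the cells these factors build, were called lower in 13 of 20 cases and higher in 0, with a median log2 fold change of -0.71. Their summed level was 1566 ± 51.4 CPM in mutant pools and 2452 ± 322 CPM in control pools (SD, n = 3 each). Pancreatic progenitor genes were called lower in 2 of 10 cases and higher in 0, with 6 of 10 log2 fold changes negative and a median of -0.08. They summed to 2218 ± 309 CPM in mutant pools and 1794 ± 342 CPM in control pools, but most of this sum is Cpa1, a marker also of early acinar cells, at 1742 ± 292 CPM in mutant pools and 1268 ± 343 CPM in control pools. The other 9 genes summed to 476 ± 33.3 CPM in mutant pools and 526 ± 19.6 CPM in control pools (SD, n = 3 each).

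Markers of other cells moved with the factors. Of 21 genes of neurons and neural crest, which share several of the 10 factors, 7 were called lower and 0 higher, with a median log2 fold change of -0.79, and none was at 0 in every library. Their summed level was 556 to 621 CPM in mutant pools and 641 to 849 CPM in control pools. Sox10, of neural crest and glia, was called lower with a log2 fold change of -0.96, though not without mutant pool 2 (edgeR adjusted p = 0.0620). Th, of catecholamine cells, lay at 1.06 to 1.95 CPM in mutant pools and 2.51 to 3.39 CPM in control pools and was not called. Dbh, of the same cells, was not called either, at 0.172 to 0.236 CPM in mutant pools and 0.835 to 8.64 CPM in control pools. Their part in the lower levels of the 10 factors was not tested.

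Mesenchyme genes, which bear on Isl1, were called higher in 3 of 14 cases and lower in 0, with 4 of 14 log2 fold changes negative. They summed to 10386 to 11663 CPM in mutant pools and 9224 to 9534 CPM in control pools. Most of this sum is the collagen genes Col1a1, Col1a2 and Col3a1. In that order they averaged 2244, 2437 and 4171 CPM in mutant pools and 1805, 2107 and 3412 CPM in control pools. Genes of stomach and intestine summed to 6.10 to 8.92 CPM in mutant pools and 11.5 to 18.9 CPM in control pools, with 1 of 4 tested called lower (Onecut3) and Gkn1 at 0 throughout. The 18.9 CPM was in control pool 2, where Sox2 had 5.72 CPM, against 0.716 and 0.701 CPM in control pools 1 and 3. Erythroid genes were called higher in 5 of 10 cases and summed to 1964 ± 429 CPM in mutant pools and 1758 ± 499 CPM in control pools (SD, n = 3 each). The part of these cells in the results was not tested.

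**Figure D4:**
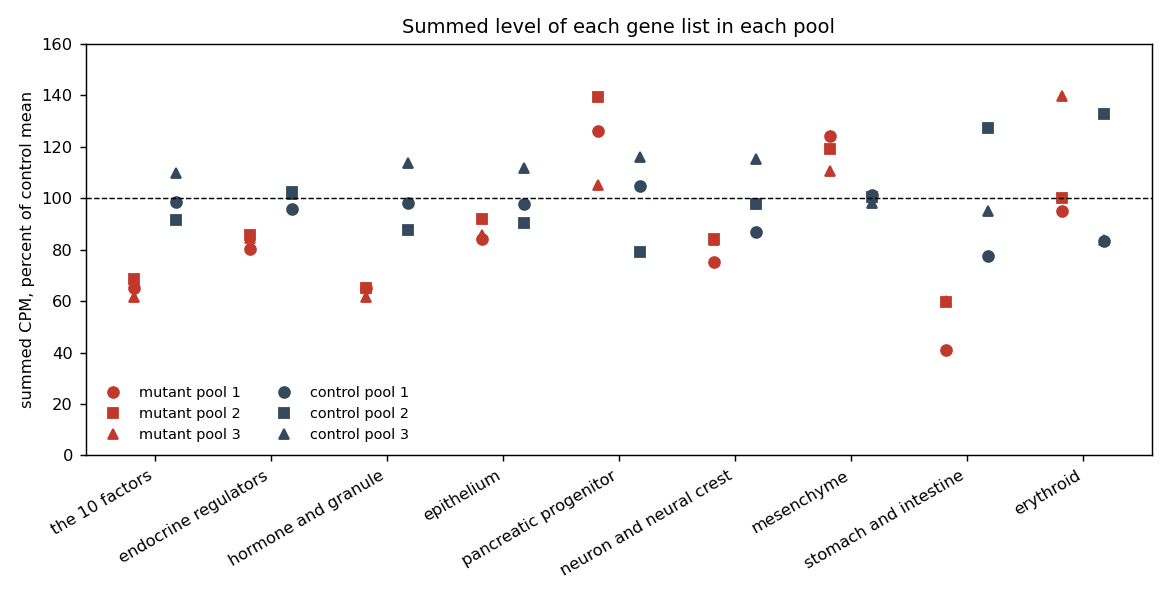
Summed CPM of each gene list in each pool as a percent of the mean of the 3 control pools (dashed line at 100), on a linear axis from 0, with red mutant pools to the left of dark control pools. The 10 factors and the hormone and granule genes lie lower in all mutant pools. The mesenchyme sum, mostly Col1a1, Col1a2 and Col3a1, lies higher in all of them, and progenitor and erythroid genes overlap.

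Finally, 12199 tested genes whose average log2 CPM was 2 or more were ranked by the Pearson correlation of their profile over the 6 libraries with the mean standardised profile of the 10 factors. The nearest were Abcd3 (r = 0.998), Tst (0.996), Rimbp2 (0.996), Hpca (0.995) and Ins1 (0.993), and Neurog3 ranked 16 with r = 0.990. Ins1, an insulin gene, averaged 3.67 ± 0.605 CPM in mutant pools and 9.75 ± 3.76 CPM in control pools (SD, n = 3 each) and was called lower, as were Tst, Rimbp2 and Hpca. Abcd3, despite the closest profile, differed little, at 119.6 ± 2.47 CPM in mutant pools and 133 ± 4.95 CPM in control pools (log2 fold change -0.15), and was not called. These profiles, too, share the 6 libraries and their 2 groups, and the ranking is a description.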

How the data were processed

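Whole-number read counts per gene for 23337 symbols were deposited for each of the 6 libraries, and these counts were not normalized by the authors. Per the submitters' processing notes, cutadapt 1.13, STAR, HTSeq 0.6.1p1, DESeq2 and genome build mm10 were used, with no role or order given. Not given in the sources used here were the STAR version, the strand setting, the annotation and how reads with several hits were handled. The labels' protocol names Trizol and the design text a column kit for RNA extraction.

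Counts were compared between groups with edgeR 4.0.16 (limma 3.58.1, R 4.3.3): TMM scaling, filterByExpr with a minimum count of 10, the quasi-likelihood F test with genotype as the only term, and Benjamini-Hochberg adjustment over the 14687 genes tested. A gene was called at an adjusted p under 0.05. The SE is the absolute log2 fold change over the root of F, and intervals use the t quantile of the fit. At 15.9 to 17.5 reads per CPM, levels under about 1 CPM carry large counting error. Groups and replicate numbers were taken from the labels, which name no batch and do not say that equal numbers share a litter or day. The edgeR p-values set the difference between groups against the variation between pools, estimated with information shared across genes.

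The members and gene lists were chosen with earlier results of these data known, so no test over a list was made. Named were all 10 factors and the 6 other endocrine regulators with the smallest adjusted p among those called, which include Neurog3. Also named were the 4 uncalled regulators with the highest CPM and relatives of the factors with a mean of at least 1 CPM. Defining markers and the 5 genes with the closest profile were named too. Other list members appear as examples chosen after their values were seen. A few genes that this rule names are not reported here. Of 149 list genes, 146 were found. Ratios used CPM plus 0.5 and exact permutation over pools. Promoters were matched by symbol to a RefSeq table on GRCm38.p6, which spans 250 bases before and 50 after each start. The edgeR script was tested on simulated data. Alternatives comprised total-count and upper-quartile scaling, DESeq2 size factors, no count filter, keeping genes with 1 CPM or more in 3 libraries, DESeq2 1.42.0, limma voom, robust estimation, a replicate block, leaving out each library, and leaving out both pools almost without Xist.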

Additional observations from a re-analysis of the deposited data

How the results depend on the processing

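All 16 alternatives kept every factor lower in mutant pools. Of 160 combinations of factor and alternative, 150 kept their side of the threshold, 9 lost a call and 1 gained a call. Over the alternatives the log2 fold change of Myt1 ran from -1.31 to -1.05, of Pax6 from -1.19 to -0.96, of Insm1 from -0.67 to -0.52, of Nkx2-2 from -0.66 to -0.53, of Rfx6 from -0.61 to -0.48 and of Isl1 from -0.18 to -0.08. The lost calls were those of Neurod1 and Neurod2, and the gained call that of St18. The number of factors called lower was 5 to 8 when 1 library was left out, 6 with limma voom and 6 without both pools almost without Xist.

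Over all genes, 629 to 1421 were called when 1 library was left out, and 665 without both pools almost without Xist, where fewer samples were fitted. Of the calls, 53.8% were lower in mutant pools, against 60.7% with total-count scaling, which moved the median log2 fold change of all genes to -0.03. With 1 library left out, 0 to 1 endocrine regulators were called higher, the 1 being Sox11 without control pool 2 (log2 fold change 0.24, edgeR adjusted p = 0.0121). Near 0, Rfx3 changed sign, at -0.024 with total-count scaling, -0.0021 with a filter of 1 CPM in 3 libraries, -0.0017 without both pools almost without Xist and between -0.0245 and 0.035 with 1 library left out. Runx1t1, at -0.02 with all libraries, lay between -0.051 and 0.0054 with 1 left out. The causes were not tested.

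The fit with a replicate block called 1138 genes, and 7 factors lower as without it. Deviations of pools with the same number correlated at 0.138, 0.101 and -0.0497, and not every pool correlated best with its own number. The largest value, 0.159, joined mutant pool 3 and control pool 2. Correlations this small cannot tell whether pools with the same number share a litter or day. All 70 alternatives of the ratios to Neurog3 and 81 of 90 of those to epithelium stayed within the spread between pools of the values given, and the 9 others used Cdh1 alone. Depth limits Neurod2, at 8 to 63 reads per library.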

Other observations

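Close relatives of the 10 factors were mostly silent or did not differ. Of 17 such genes, 7 were tested, and 1 was called higher, 1 lower and 5 neither. Neurod6, Nkx2-1 and Nkx2-9 had 0 counts in every library. Isl2, the relative of Isl1, was higher in mutant pools, at 2.94 ± 0.550 CPM against 1.25 ± 0.164 CPM in control pools (SD, n = 3 each), without overlap (log2 fold change 1.23, SE 0.231, edgeR adjusted p = 0.0131). Isl1 itself was not called. The call of Isl2 ended without mutant pool 2 or mutant pool 3 (edgeR adjusted p = 0.0518 and 0.0532). Myt1l, the neuronal relative of Myt1 and St18, was lower in mutant pools, at 0.393 ± 0.200 CPM against 1.17 ± 0.186 CPM in control pools (log2 fold change -1.55, edgeR adjusted p = 0.0441); its mean was under 1 CPM and it is named, after its values were seen, because it is the 1 relative called lower. That call ended without any single mutant pool, without control pool 1 or 3 and without both pools almost without Xist (edgeR adjusted p = 0.0532 to 0.230), and also with DESeq2 (0.112) and with a replicate block (0.0727). Among the relatives of Rfx6, Rfx1 (log2 fold change -0.08), Rfx2 (-0.20), Rfx5 (-0.00) and Rfx7 (0.03) were not called, nor was Nkx2-3 (0.09), a mesenchymal relative of Nkx2-2.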
